A study of Mus musculus with 2 samples.

Results

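The 8 genes Sox10, S100b, Mbp, Foxd3, Erbb3, Fabp7, Gfap and Pmp22, which mark glia and Schwann cells, were read in total RNA from the adrenal gland of the mouse. They were taken by name, and all 8 were found among 55536 annotated genes, each with 1 record. The donors were females of B6CASTF1/J, a hybrid of the strains C57BL/6J and CAST/EiJ, aged 36 days. There was 1 group of 2 libraries, each from 300 ng of RNA after reduction of ribosomal RNA, with ERCC spike-ins and no treatment. Replicate numbers 1 and 2 come from the labels, which call them biological, but both libraries carry the same donor identifier, and the animal numbers are not uniform between fields. The spread between them may therefore be technical. With no second condition there was no test, and every difference given here is between these libraries.

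Glia of the peripheral nervous system descend from the neural crest. Sox10 sets up and holds this lineage, and neuregulin, signalling through the receptors Erbb2 and Erbb3, keeps Schwann cells alive and drives them to divide and to myelinate. Myelinating Schwann cells wrap axons in membrane built with Pmp22 and Mbp. Schwann cells and the sustentacular cells of the adrenal medulla are known for S100b, and some of the non-myelinating and sustentacular ones for Gfap. In the embryo, Schwann cell precursors on the nerves to the gland give rise to many chromaffin cells, the adrenaline-making cells of the medulla.

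The gene tables held 35684781 expected counts in replicate 1 and 38701795 in replicate 2. An expected count is an estimated number of reads per gene, and TPM is the same number per transcript length, scaled to the same total in every library. The label of the tissue fitted its markers, with 8 of 8 cortical and 12 of 12 chromaffin genes at 1 TPM or more in both libraries. Summed over the chromaffin list, the level was 1707 TPM in replicate 1 and 1310.1 in replicate 2. Skeletal muscle genes stood apart, summing to 345 TPM in replicate 1 and 2.61 in replicate 2. Of the 10 listed, all 9 with 200 or more summed counts were 2-fold or more lower in replicate 2. The other, Myh4, had 80.2 counts in replicate 1 and 1.03 in replicate 2. In such bulk tissue, fewer cells of a type and less RNA per cell cannot be told apart.

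Only 3 of the 8 genes, Pmp22, Mbp and S100b, reached 1 TPM in both libraries. Across all annotated genes 23.0% did so, and across 22015 nuclear protein-coding genes 53.0%. With the read-derived TPM, a second quantification made without the alignment, Erbb3 also passed (4 of 8, against 57.2% of protein-coding genes). With TPM rescaled over nuclear protein-coding genes, Erbb3 and Sox10 passed (5 of 8, against 60.1%). Pmp22 stood far above the rest, Mbp and S100b lay near the middle of the protein-coding genes, and the regulators Sox10 and Foxd3, the receptor Erbb3, Fabp7 and Gfap lay below 1 TPM. By mean TPM the order was Pmp22, Mbp, S100b, Erbb3, Sox10, Fabp7, Foxd3 and Gfap. The libraries' values of Mbp and S100b overlapped, and so did those of Sox10 and Fabp7. Those of Fabp7 (5 and 12 counts) and Foxd3 (15 and 10 counts) overlapped in the read-derived TPM. None of these pairs has a settled order.

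**Figure D1:**
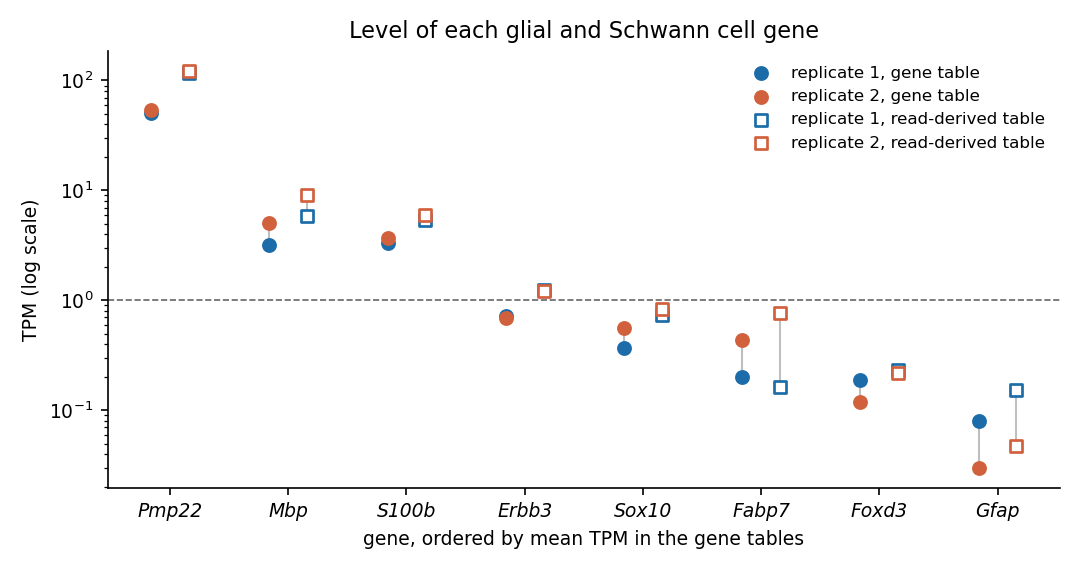
TPM of the 8 genes on a log axis, with filled circles for the gene tables and open squares for the read-derived tables, blue for replicate 1 and orange for replicate 2, and a dashed line at 1 TPM. Pmp22 lies at 50.9 TPM or higher in every table, and Foxd3, Gfap, Fabp7 and Sox10 lie below 1 TPM in every table.

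Pmp22 encodes a small membrane protein with several passes through compact myelin, and is also made by many cells outside nerve. The gene (ENSMUSG00000018217.12) lies on chromosome 11 from 63128982 to 63159547 in mm10, on the plus strand. Its annotated transcripts begin at different first exons and then join the same coding exons, so 4 of them share 1 coding sequence of 160 codons. A pair of these starts carries most of the gene's reads in one quantification or the other, and the 250 bases before each are shown for that reason, from RefSeq on GRCm38.p6, which has the coordinates of mm10. Capitals mark CCAAT and GGGCGG on either strand. The first window ends at the base before the start of Pmp22-204. The second ends at the base before a RefSeq start, which lies 55 bases before the base at which GENCODE starts Pmp22-201.
Pmp22 upstream start, chr11:63128732-63128981, plus strand: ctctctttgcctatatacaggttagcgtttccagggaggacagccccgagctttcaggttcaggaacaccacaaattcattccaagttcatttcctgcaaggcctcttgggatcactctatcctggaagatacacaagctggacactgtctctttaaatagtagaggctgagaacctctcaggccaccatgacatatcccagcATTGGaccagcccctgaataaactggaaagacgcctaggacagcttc
Pmp22 second start, chr11:63131207-63131456, plus strand: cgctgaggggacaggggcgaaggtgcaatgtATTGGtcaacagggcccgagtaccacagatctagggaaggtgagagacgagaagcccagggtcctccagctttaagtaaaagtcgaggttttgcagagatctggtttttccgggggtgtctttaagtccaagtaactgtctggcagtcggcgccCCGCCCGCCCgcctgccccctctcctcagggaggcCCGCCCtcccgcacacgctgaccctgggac

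The windows differed in base composition. The upstream one was 48.8% G and C with 3 CG pairs, and the second one 61.2% with 14, where the median of 32851 RefSeq windows was 52.4%. GGGCGG was found 3 times in the second window, counting overlapping matches, and not in the upstream one, and 32.7% of all windows hold it. CCAAT was in both, as in 33.8% of all windows. The TATAAA box and the letters ACAAAG and ACAATG, which SOX proteins can bind, were in neither. They were in 0 of the 8 windows listed for Pmp22, S100b, Fabp7, Foxd3 and Gfap, against 12.4%, 16.5% and 10.7% of all windows. Such matches describe letters and are not sites.

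Pmp22 had 50.9 TPM in replicate 1 and 54.3 in replicate 2, with 3017 and 3470 counts, or 52.6 ± 2.38 TPM (SD, n = 2). It stood above 95.1% of the nuclear protein-coding genes. The libraries were close, with a log2 ratio of replicate 2 over replicate 1 of 0.09 on the TPM + 0.1 scale. Its share of all counts was 1.06 times as large in replicate 2, with an exact 95% interval from 1.01 to 1.11 that covers counting error only.

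Which start made this RNA depended on the quantification. The alignment-derived transcript table put 93.2% of the gene's TPM in replicate 1 and 93.6% in replicate 2 on Pmp22-201, the transcript of the second start. It left 1.69% and 2.03% on Pmp22-204, that of the upstream start. The read-derived table put 52.7% and 63.2% on Pmp22-204 instead, and only 16.2% and 7.82% on Pmp22-201. That table also gave 31.2% and 28.1% to Pmp22-205, a noncoding transcript of 388 bases, from 96.0 and 91.4 counts. The libraries thus resembled each other within a table, while the tables placed the gene on different starts.

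Little sequence separates these transcripts. Of the 1792 stretches of 31 bases in Pmp22-204, 168 (9.38%) were in no other Pmp22 transcript, and of the 1770 in Pmp22-201, 144 (8.14%). The gene's total depended less on the table in counts than in TPM. Read-derived counts were 3179 and 3640, close to those of the gene tables, while the read-derived TPM was 118 and 123. A higher read-derived TPM was not particular to Pmp22. S100b and Erbb3, each with a single annotated transcript, went from means of 3.49 to 5.70 TPM and of 0.705 to 1.23 TPM. Pmp22 is known for alternative first exons, of which the upstream one is used mainly by Schwann cells that myelinate. These tables do not settle which first exon the adrenal gland used.

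**Figure D2:**
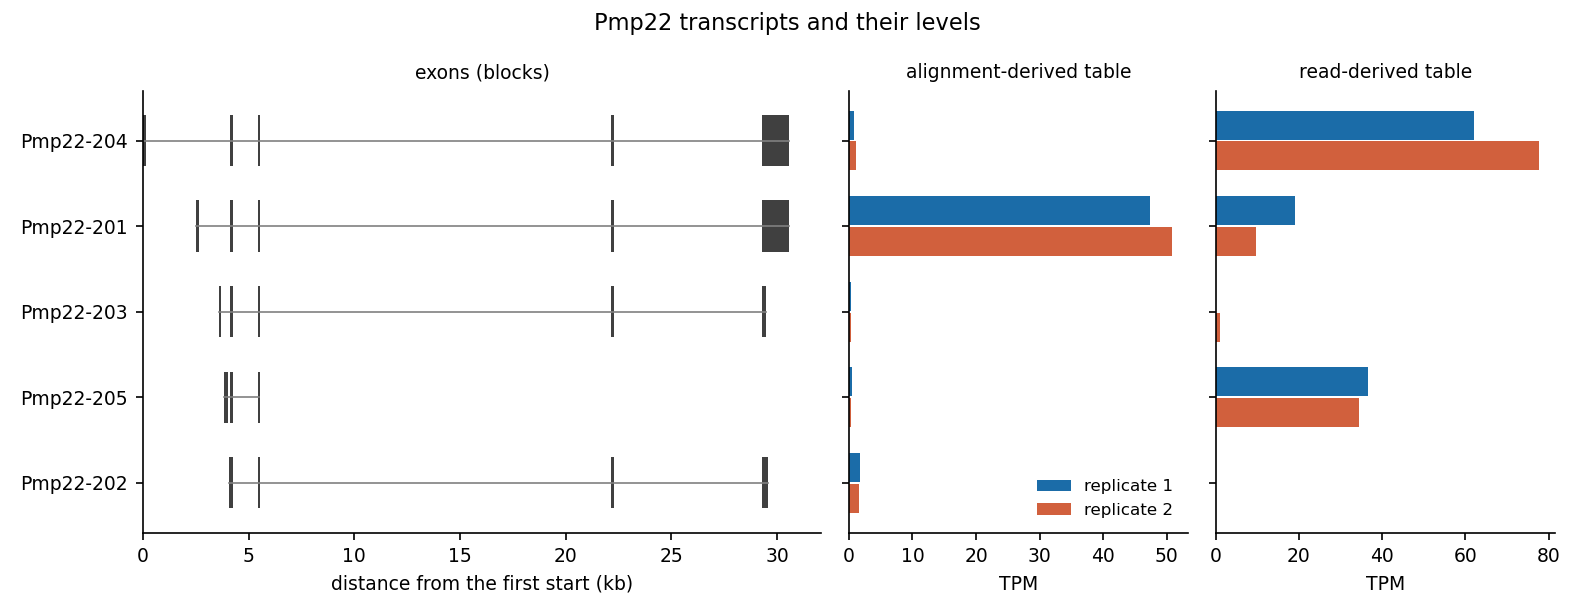
Exons of the 5 annotated Pmp22 transcripts by distance from the upstream start in kb (narrow exons are drawn at a minimum width), beside their TPM in the alignment-derived and read-derived tables, blue for replicate 1 and orange for replicate 2. The longest bars belong to Pmp22-201 at 47.4 and 50.8 TPM in one table and to Pmp22-204 at 62.1 and 77.6 TPM in the other.

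The relatives of Pmp22, the epithelial membrane proteins, were all detected. Emp3 was at 83.0 and 80.2 TPM, above Pmp22 in the gene tables, Emp1 at 11.1 and 7.86 TPM and Emp2 at 1.95 and 1.83 TPM. No stretch of 31 bases was shared between Pmp22 and any of the 3. Cell types outside nerve that are known to make Pmp22 were present, since 8 of 8 fibroblast and 8 of 8 endothelial markers were detected, with summed levels of 236 and 208 TPM and of 200.1 and 192 TPM. Their part in the level of Pmp22 was not tested.

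Mbp encodes the basic proteins that hold the inner faces of the myelin membrane together. From an upstream start the same gene also makes golli proteins, which are found in neurons and immune cells as well as in myelin-forming glia. The gene (ENSMUSG00000041607.17) spans 110.5 kb on chromosome 18, plus strand. Mbp had 3.16 TPM in replicate 1 and 5.08 in replicate 2, with 443 and 729 counts, or 4.12 ± 1.36 TPM (SD, n = 2). The higher value was in replicate 2, and the deposited TPM intervals, from 3.38 to 4.61 and from 5.06 to 6.56, did not overlap. The TPM of replicate 1 lay below its own interval.

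Most of the Mbp TPM was assigned to transcripts with the upstream start. The 4 that begin there held 82.2% of the gene's TPM in replicate 1 and 81.3% in replicate 2. The 12 that begin 79.3 kb or more downstream, where the classic myelin transcripts start, held 17.8% and 18.7%. In TPM, the upstream group stood at 2.59 and 4.14 and the downstream group at 0.56 and 0.95. The read-derived table gave 82.1% and 78.3% to the upstream group. Both quantifications and both libraries thus put the upstream transcripts first.

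A single transcript made most of that share. Mbp-205, of 4797 bases, held 69.5% and 66.2% of the gene's TPM, and 63.0% and 61.7% in the read-derived table. It ends 83.6 kb from the start in a last exon of 4384 bases and does not reach the later exons of classic Mbp. Of its bases, 3955 (82.4%) were in no other Mbp transcript, and that stretch lies in an intron of the transcripts that begin before it and run on to the later exons. Reads from their unspliced RNA would fall there too, and these tables do not separate them. Without Mbp-205, the upstream start held 41.7% and 44.8% of what remained, and 51.7% and 43.4% in the read-derived table. The lead of the upstream start therefore rested on Mbp-205, with replicate 1 of the read-derived table as the exception.

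Among the others, Mbp-201, which runs from the upstream start through the later exons, was at 0.34 and 0.68 TPM. Of the transcripts with the classic start, Mbp-212 was at 0.36 TPM in each library. Mbp-209 was at 0.02 and 0.41 TPM, from 0.38 and 8.46 counts, and in the read-derived table at 0.572 and 1.36 TPM. At such counts the share of any single classic transcript is not settled.

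**Figure D3:**
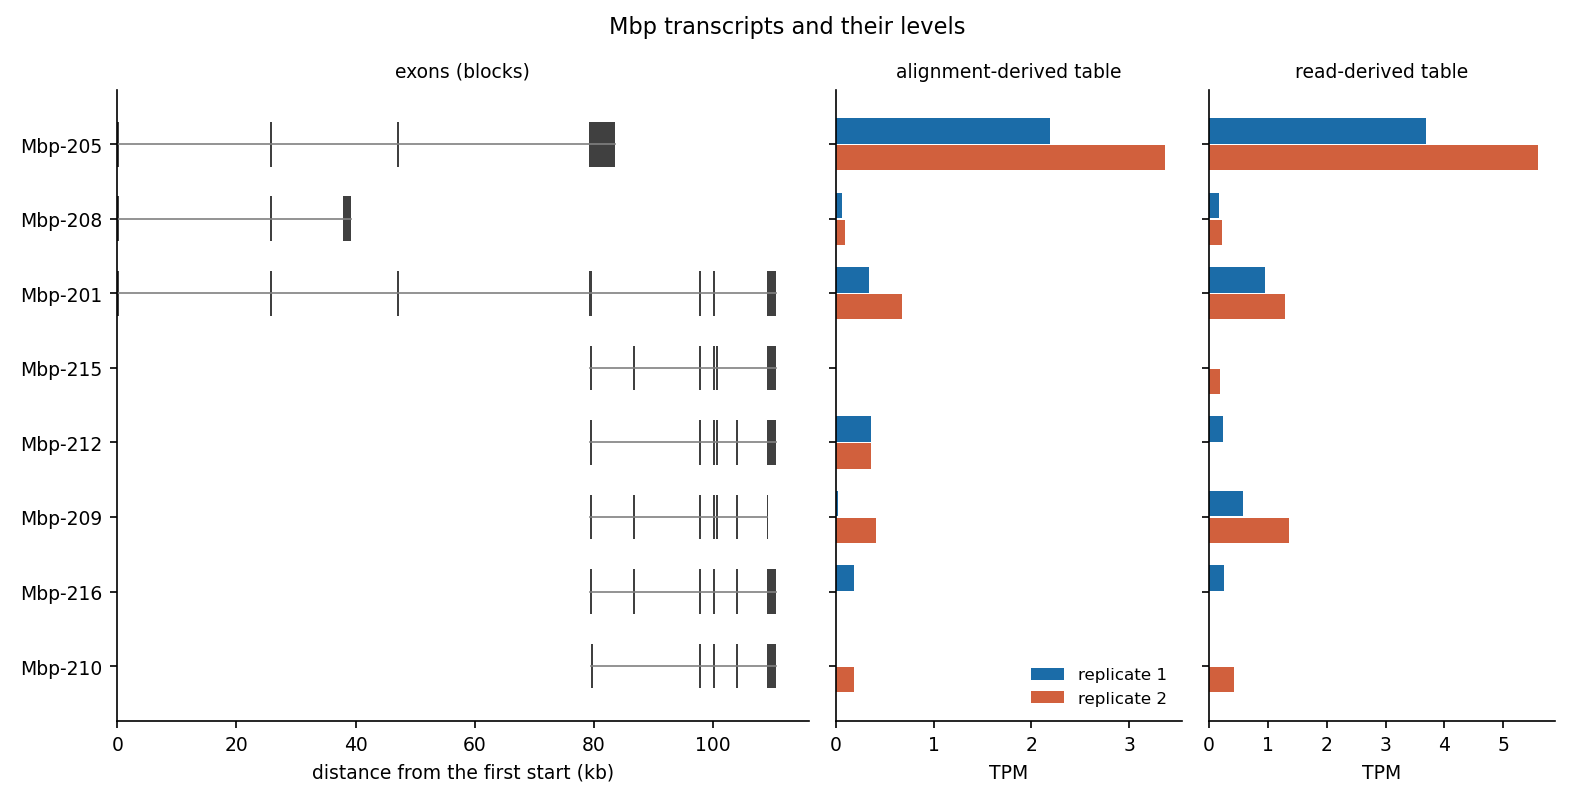
Exons of the 8 Mbp transcripts with a level above 0.01 TPM in any table, by distance from the upstream start in kb (narrow exons are drawn at a minimum width), beside their TPM in both transcript tables, blue for replicate 1 and orange for replicate 2. Mbp-205, which ends in a long last exon, has the longest bar in each table and library.

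S100b encodes a calcium-binding protein of glia that is also made by fat cells and some other cells. The gene (ENSMUSG00000033208.7) lies on chromosome 10 from 76253853 to 76261159, plus strand. The 250 bases before its RefSeq start are shown because S100b is the detected gene of the list with a single annotated transcript, so its signal belongs to 1 start. The RefSeq start lies 17 bases before that of GENCODE. CCAAT occurs 2 times, in capitals.
S100b, chr10:76253586-76253835, plus strand: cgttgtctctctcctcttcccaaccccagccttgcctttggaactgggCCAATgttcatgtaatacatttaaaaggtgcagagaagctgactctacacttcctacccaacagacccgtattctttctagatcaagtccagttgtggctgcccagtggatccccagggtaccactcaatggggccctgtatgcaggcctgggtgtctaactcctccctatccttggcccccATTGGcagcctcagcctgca

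S100b had 3.3 TPM in replicate 1 and 3.68 in replicate 2, with 165 and 197 counts, or 3.49 ± 0.269 TPM (SD, n = 2). The libraries were close, with a share of counts 1.10 times as large in replicate 2 and an interval from 0.891 to 1.36. The read-derived table had 159 and 189 counts. The last 1731 bases of the gene's span lie over the end of Dip2a on the other strand, which had 1163 and 1659 counts. Whether the counting used strand is not given in the sources used here, so the level of S100b is uncertain to that extent. Adipocyte genes, another known source of S100b, were at a summed 1576 and 1621 TPM with 7 of 8 detected, and their part was not tested.

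Other S100 genes were far above S100b. S100a11 was at 68.5 and 62.8 TPM, S100a10 at 58.9 and 50.5 TPM and S100a1 at 44.5 and 43.1 TPM. Of the 16 listed genes 8 were detected, among them S100pbp, which encodes a binding partner and not an S100 protein.

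Sox10, the transcription factor of the lineage (ENSMUSG00000033006.10, chromosome 15, 79154908 to 79165240, minus strand), had 0.37 TPM in replicate 1 and 0.56 in replicate 2. It had 35 and 58 counts, with exact 95% Poisson intervals from 24.4 to 48.7 and from 44.0 to 75.0 that overlap. The related Sox8 was at 0.21 and 0.38 TPM and Sox9 at 0.36 and 0.33 TPM, so no SoxE gene reached 1 TPM. Sox10 shared 25 of 3043 stretches of 31 bases with Sox9 and 0 with Sox8.

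The transcript behind the Sox10 counts was not settled. The alignment-derived table put all 35 counts of replicate 1 on Sox10-201, but 42.4 of the 58 counts of replicate 2 on Sox10-203, and the read-derived table put 40.9 and 56.0 counts on Sox10-203. Every stretch of 31 bases in Sox10-201 is also in another Sox10 transcript, and 67 of the 2750 in Sox10-203 are its own.

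Erbb3, the neuregulin receptor of Schwann cells (ENSMUSG00000018166.8, chromosome 10, 128567523 to 128589652, minus strand), had 0.72 TPM in replicate 1 and 0.69 in replicate 2. It had 154 and 158 counts on its 1 transcript, and the libraries did not differ beyond counting error, with a share ratio of 0.946 and an interval from 0.753 to 1.19. In the read-derived table Erbb3 was at 1.23 and 1.22 TPM, so its place relative to 1 TPM depended on the table. Its partner Erbb2 was at 1.37 and 1.29 TPM, and Erbb4, another neuregulin receptor, at 0.23 and 0.31 TPM.

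Among the ligands, Nrg4, which acts mainly through Erbb4, was highest, at 6.82 and 9.43 TPM. Nrg1, the axonal ligand of Schwann cells, had 0.8 TPM in replicate 1 and 0.25 in replicate 2, with 49 and 36 counts. Nrg2 was higher in replicate 2, at 0.51 and 1.31 TPM, and Nrg3 was at 0.88 and 0.77 TPM. Of the 13 listed neuregulin and ErbB genes 9 were detected, and the highest were the common adaptors Grb2 (46.9 and 47.9 TPM), Ptpn11 (31.5 and 30.4 TPM) and Shc1 (28.2 and 28.5 TPM), which serve many receptors.

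Foxd3, a regulator of neural crest and Schwann cell precursors (ENSMUSG00000067261.4, chromosome 4, 99656299 to 99658622, plus strand), was at 0.19 and 0.12 TPM. Its 15 and 10 counts have Poisson intervals from 8.40 to 24.7 and from 4.80 to 18.4. Fabp7, a fatty acid carrier of Schwann cell precursors and radial glia (ENSMUSG00000019874.11, chromosome 10, 57784881 to 57788450, plus strand), was at 0.2 and 0.44 TPM. Its counts were 5 and 12, and the share ratio of 2.21 has an interval from 0.726 to 8.02. Gfap, the glial filament protein (ENSMUSG00000020932.14, chromosome 11, 102887336 to 102900912, minus strand), was at 0.08 and 0.03 TPM, from 7 and 3 counts. Its whole span lies within Gm26668, a noncoding gene on the other strand with 0 counts in both libraries. For each of these 3 genes the counts of the libraries were within counting error of each other.

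Of 8 other fatty acid binding proteins 3 were detected, and the median over them was 0.413 TPM. Fabp4 of fat cells was at 789.7 and 749 TPM, Fabp3 at 26.6 and 14.9 TPM and Fabp5 at 16.1 and 13.99 TPM, and Fabp7 shared no stretch of 31 bases with Fabp4 or Fabp5. The rest were low, from 0 counts in both libraries for Fabp6 and Fabp9 to 1.53 and 0.06 TPM for Fabp1. Of 4 filament genes related to Gfap 3 were detected. Vim, the filament of mesenchyme and of many glia, was at 55.8 and 54.95 TPM. Des, the muscle filament, was 2-fold lower in replicate 2 (11.7 and 5.66 TPM), the library with the lower skeletal muscle genes. Nes was at 2.27 and 2.68 TPM and Prph, a filament of peripheral neurons, at 0.7 and 1.02 TPM. Fabp3, which muscle also makes, was lower there as well. The part of muscle in either was not tested.

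The difference between the libraries was small for 3 of the 4 genes with 200 or more summed counts. The log2 ratios were 0.67 for Mbp, 0.15 for S100b, 0.09 for Pmp22 and -0.05 for Erbb3, with a median of 0.12, where 12280 genes had a median of 0.04 and an SD of 0.37. None of the 4 was 2-fold apart, and 0.904% of those genes were, 0.423% higher and 0.480% lower in replicate 2. Mbp was the farthest, and 97.7% of the 12280 genes were closer between the libraries than Mbp. Its share of counts was 1.52 times as large in replicate 2, with an interval from 1.35 to 1.71.

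**Figure D4:**
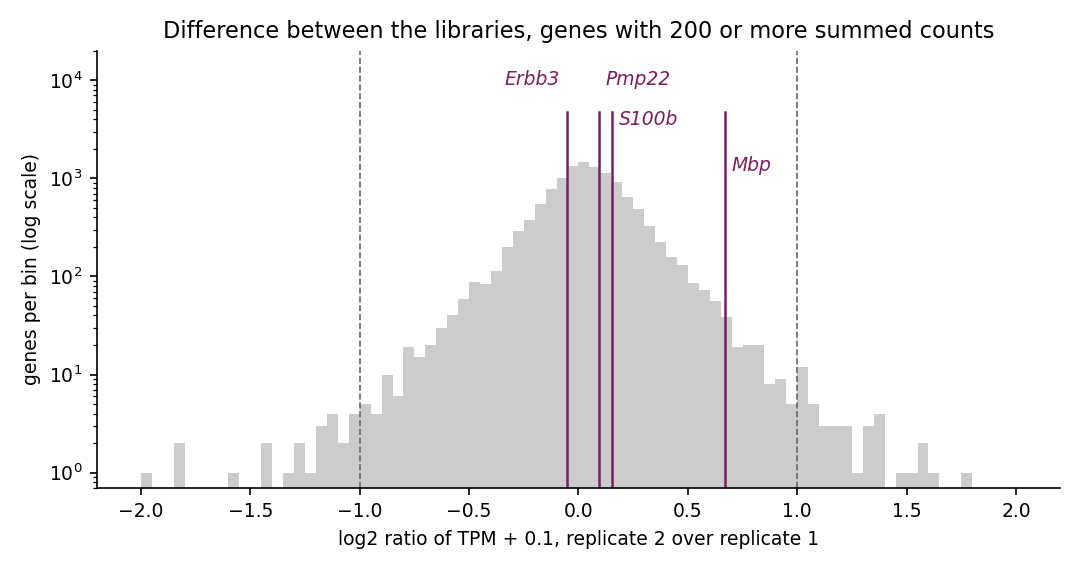
Histogram of the log2 ratio of TPM + 0.1, replicate 2 over replicate 1, for genes with 200 or more summed counts between -2 and 2, with the number of genes per bin on a log axis, vertical lines for the 4 genes of the list in it and dashed lines at 2-fold. Erbb3, Pmp22 and S100b lie in the centre of the histogram and Mbp at 0.67 on its right side.

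The higher Mbp of replicate 2 was beyond counting error in the transcripts with the upstream start. Their TPM was 1.60 times as high in replicate 2, and 1.48 times in the read-derived table, and their share of counts 1.56 times, with an interval from 1.37 to 1.76. Most counts of the upstream group were on Mbp-205 (371 and 612), where reads from unspliced RNA could also fall. The downstream group had 39.0 and 48.4 counts, a share ratio of 1.14 with an interval from 0.729 to 1.78. A difference was thus not detectable at this depth. That interval also holds the upstream ratio of 1.56, so the groups were not shown to differ. The TPM of the downstream group was 1.70 times as high in replicate 2, and 1.88 times in the read-derived table. Without the short Mbp-209 it was 0.54 in both libraries (0.474 and 0.614 in the read-derived table). The chromaffin list lay on the other side, with a median log2 ratio of -0.23. Leukocyte markers, whose cells can make golli transcripts, summed to 63.1 TPM in replicate 1 and 55.0 in replicate 2. Of these, Ptprc was at 1.66 and 1.27 TPM and Cd3e at 0.04 and 0.09 TPM. Of 11 oligodendrocyte genes 3 were detected, namely Pdgfra at a mean of 10.6 TPM, Cldn11 at 2.43 and 3.24 TPM and Cspg4 at 2.65 and 2.96 TPM, which other cells also make. Myrf was at 0.5 and 0.43 TPM, Olig1 at 0.15 and 0.11 TPM, and Mobp had 0 and 3 counts. The other 5, Mog, Opalin, Olig2, Nkx2-2 and Ermn, had 0 counts in both libraries, which allows up to 0.0841 and 0.0775 CPM (a floor of 3 counts over the total, for counting error only). The part of leukocytes in the Mbp difference was not tested.

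The other myelin genes of Schwann cells were mostly low. Of 13 listed, 5 were detected, and the median over the list was 0.625 TPM. Mag, the adhesion molecule next to the axon, was at 0.04 and 0.06 TPM, and Prx, the scaffold periaxin, at 0.61 and 0.64 TPM. The highest of the list were Cd9 (36.6 and 35.0 TPM) and Cnp (14.1 and 18.4 TPM), which many cells make, then Mal (1.69 and 1.91 TPM) and Gldn (1.7 and 1.84 TPM).

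Genes of immature and non-myelinating Schwann cells passed 1 TPM in both libraries in 6 of 15 cases, and their median was 0.875 TPM. Cdh2 (a mean of 20.2 TPM), Ednrb (12.4 and 13.5 TPM) and Ncam1 (11.9 and 11.4 TPM) led, and each is also made by other cells. Scn7a, a sodium channel protein, was at 2.21 and 2.27 TPM. Ptprz1 was at 2.42 and 2.53 TPM and L1cam at 1.89 and 2.98 TPM. The other members were close to or below 1 TPM. Ngfr, the low-affinity neurotrophin receptor, was at 0.84 and 1.2 TPM, Cdh19, a cadherin of the Sox10 lineage, at 0.86 and 0.89 TPM, and Gap43 at 0.46 and 0.68 TPM. Sox2, Tfap2a and Pax3 were at or below 0.08 TPM.

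The Schwann cell transcription factor list had 10 of 16 genes at 1 TPM or more in both libraries and a median of 5.19 TPM, and was led by the widely expressed Zeb2 (46.9 and 52.6 TPM), Hdac2, Yy1 and Nab1. Egr2, which switches on myelin genes, was at 0.23 and 0.19 TPM and Pou3f1, which acts before it, at 0.04 and 0.01 TPM. No gene of these lists with 200 or more summed counts was 2-fold apart between the libraries. The median log2 ratio was 0.08 for the myelin list and 0.09 for the immature list.

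**Figure D5:**
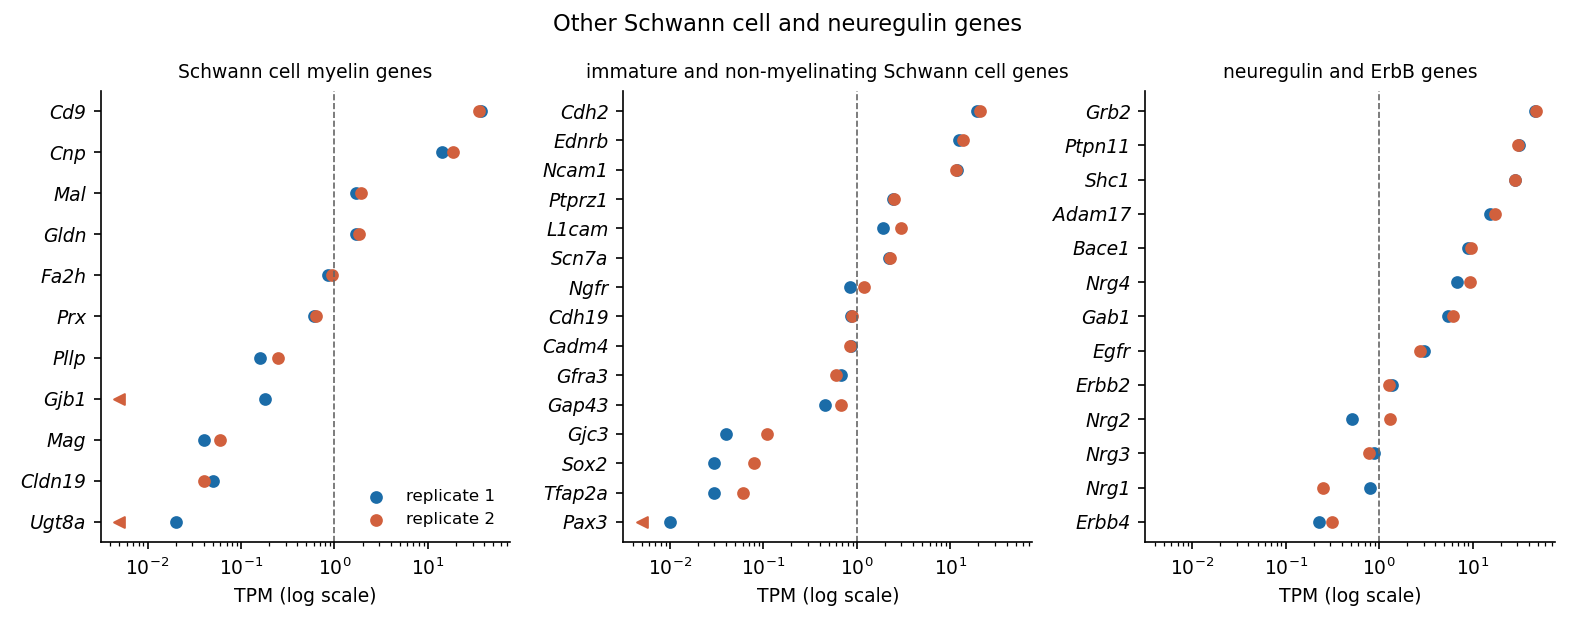
TPM on a log axis of genes of the Schwann cell myelin (some of its members are not shown), the immature and non-myelinating Schwann cell, and the neuregulin and ErbB lists, blue for replicate 1 and orange for replicate 2, with a dashed line at 1 TPM and a triangle at the left edge for a value of 0. Cd9 and Cnp lead the myelin list, and Mag, Cldn19 and Ugt8a lie below 0.1 TPM in both libraries.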

How the data were processed

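Total RNA of the adrenal gland was measured in 2 libraries of 1 group. Per the text beside the deposited files, the tables use mm10 and GENCODE M21. The deposited expected counts and TPM come from an alignment to the transcriptome, and the column names are those RSEM writes. A further transcript table with estimated counts and TPM was deposited by the authors from the reads directly, with the column names of kallisto. The deposited bounds of the TPM interval are a signal of unstated level. For versions, filters and the strand setting, nothing is given in the sources used here.

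Gene symbols came from the read-derived tables and coordinates from GENCODE M21, on which 55450 of 55451 symbols matched. Detected means at least 1 TPM in each library. Levels are means and SDs over 2 libraries. Ratios are log2 of TPM + 0.1, a scale that understates changes of low genes, over genes with 200 or more summed counts, and the calling of 2-fold differences was tested on simulated data. Transcript shares were computed from TPM. Intervals at 95% are exact Poisson or Clopper-Pearson ones and, like the floor of 3 counts, cover counting error only. Alternatives used another threshold, pseudocount or filter, the read-derived table, TPM rescaled over nuclear protein-coding genes, edgeR 4.0.16 TMM factors and DESeq2 1.42.0 size factors on rounded expected counts (R 4.3.3), and each library alone. The computation ran in Python 3.11.15 (scipy 1.17.1, pandas 2.3.3, numpy 2.4.6, and matplotlib 3.10.9 for plots).

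All 8 genes are named, with transcripts at 10% or more of a gene in either quantification and a few others whose values were seen first. Of the 21 other lists, the highest members and defining markers are named, and some list members are not reported here. The members and lists were chosen with earlier results of these data known. Likeness of pattern between genes could not be computed from 2 libraries. Promoter windows were taken from RefSeq on GRCm38.p6, where 5 of the genes had at least 1.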

Additional observations from a re-analysis of the deposited data

How the results depend on the processing

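The count of genes at 1 TPM or more in both libraries was 3, and 5 with TPM rescaled over nuclear protein-coding genes, which adds Erbb3 and Sox10, where 60.1% of protein-coding genes pass. It was 4 at 0.5 TPM and in the read-derived table, 3 at 2 TPM, and 3 from either library alone. The count of genes 2-fold apart was 0 under each of 6 alternatives. With no filter on counts it was 0 for TPM + 0.1. The other tables and scalings were counted with the filter, below which Fabp7 had a log2 ratio of 1.70 in the read-derived table and Gfap -1.24 with TMM factors. For each of the 8 genes, the 4 alternatives for the log2 ratio kept its sign and moved it by less than its counting error. The level moved beyond the SD between libraries for 7 of 8 genes in the read-derived table. It did so for 8 of 8 with TPM rescaled over nuclear protein-coding genes, which hold 31.2% of the TPM of each library. Pmp22 went from 52.6 to 169 TPM and Sox10 from 0.465 to 1.49 TPM. Rescaling multiplies every gene of a library by the same factor, so those moves are a change of scale. Each cortical marker also had a higher read-derived TPM, such as Nr5a1 at 357 and 349 against 223 and 219 TPM. The share of all genes that moved was not computed. The leading transcript's share moved for 4 of 8 genes. S100b, Foxd3 and Erbb3 have a single annotated transcript, so theirs could not move, and the move of Fabp7 rested on 1.1 counts. For Pmp22-201 that share went from 93.4% to 11.99%, and for Sox10-201 from 63.4% to under 0.01%, and the cause was not tested. The share of Mbp TPM with an upstream start was 81.8%, against 80.2% in the read-derived table and 43.2% without Mbp-205, and the ratio of the downstream TPM 1.70, against 1.0 without Mbp-209, alternatives chosen after seeing the data. No paired analysis was possible because there was a single group. Depth limits Gfap, Fabp7, Foxd3 and Sox10, which had 10 to 93 summed counts.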

Other observations

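Several genes used as markers of astrocytes and other glia in nervous tissue were high in this gland, while Gfap had 7 and 3 counts. Which cells of this bulk tissue made the high ones was not tested. Glul, glutamine synthetase, had 313 TPM in replicate 1 and 379 in replicate 2. Gja1, the gap junction protein connexin 43, was at 119 and 108 TPM, and Aldh1l1, an enzyme of folate metabolism, at 53.9 and 52.3 TPM. Slc1a3, a glutamate transporter, was at 6.13 and 8.66 TPM. More restricted astrocyte genes were low, with Aqp4 at 0.04 and 0.01 TPM, Slc1a2 at 0.17 and 0.05 TPM and Gjb6 at 0 and 0.03 TPM.

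Melanocytes are another neural crest lineage that uses Sox10. Of their pigment genes, Mlana had 0 counts in both libraries, Tyr had 1 and 0 counts and Dct was at 0.01 and 0.06 TPM. Pmel was higher, at 0.63 and 0.25 TPM from 29 and 20 counts. Mitf, a regulator that other cells also make, was at 2.22 and 3.09 TPM. Of 10 sympathetic neuron and axon genes 4 were detected. These were Npy (201 and 146 TPM), Uchl1 (17.8 and 16.2 TPM), Stmn2 (2.16 and 3.72 TPM) and Tubb3 (1.13 and 1.36 TPM). The filament genes of that list were lower. Nefl was at 0.32 and 0.34 TPM, Nefm at 0.39 and 0.29 TPM, Nefh at 0.46 and 0.43 TPM and Prph at 0.7 and 1.02 TPM.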
